A study of Mus musculus with 20 samples.

Results

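Growth hormone, prolactin, the glycoprotein hormone alpha subunit and pro-opiomelanocortin are the main secretory products of the anterior pituitary, and their genes were followed here through mouse brain, heart, lung, skeletal muscle and subcutaneous adipose tissue. The genes were Gh, Prl, Cga and Pomc. They were chosen by symbol: every probe set (a group of short oligonucleotides read as 1 feature) that the platform annotation assigns to 1 of these symbols was taken, which gave 5 probe sets of 4 genes among 12422 that are not controls. Gh, Prl and Pomc had 1 probe set each (92783_at, 92803_at and 94026_at), Cga had 2 (162502_f_at and 94700_at), and 0 probe sets named 1 of these genes among several symbols. Gh and Cga were selected on their pattern with sleep fragmentation and hypoxia in these same arrays, so the differences between conditions in brain, heart, lung and muscle are given below as descriptions without a test.

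The pituitary hangs from the hypothalamus by a stalk, and each hormone is made by its own cell type. Somatotrophs make growth hormone, lactotrophs make prolactin, and both lineages depend on the transcription factor Pit-1 (POU1F1). Thyrotrophs and gonadotrophs make the alpha subunit, which pairs with the beta subunits of thyrotropin, luteinising hormone and follitropin. Corticotrophs and melanotrophs cut pro-opiomelanocortin into corticotropin, melanocortins and beta-endorphin, and Pomc is also transcribed in a small group of hypothalamic neurons. Growth hormone is secreted in pulses tied to sleep, under stimulation by growth hormone releasing hormone and inhibition by somatostatin.

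The study addresses sleep apnea and glucose metabolism, and hybridised total RNA from mouse tissue to 20 arrays. A panel of 12 arrays held whole tissue of 20-week-old C57BL-6J mice, 1 array for each of brain, heart, lung and skeletal muscle in each of 3 states: control (neither hypoxia nor sleep fragmentation), fragmentation, in which sleep is repeatedly broken, and hypoxia. The other 8 arrays held subcutaneous adipose tissue of 12-week-old mice, for which the labels name both C57BL-6J and C57BL-6J-Lep (in some labels C57BL-6J-LepOb), a strain altered in the leptin gene, without giving the strain of each array. Their titles carry Con or Glucose together with Hyp or NonHyp, which gives 4 groups with 2 arrays in each. The Hyp groups are labelled as intermittent hypoxia, a fall from 20.9% to 5% oxygen over 30 seconds and a return over the next 30, for 16 hours a day on 5 days, and the NonHyp groups are taken as the intermittent room air of the same schedule. What Con and Glucose stand for, the schedule of hypoxia and fragmentation in the panel, and whether replicate arrays came from separate animals or from pools are not given in the labels. Every p-value below therefore measures only the spread between arrays, and the number of arrays limits the precision. In the panel, with 1 array per tissue and condition, that spread is not one between replicates. It also holds any difference between tissues in their response to condition.

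The 250 bases before the annotated start of 3 of the 4 genes are shown because all 5 probe sets read higher on the brain fragmentation array than in control, and they were searched for motifs known from pituitary promoters. They are RefSeq sequences of mouse build GRCm38.p6, plus strand, 5′ to 3′, at chr13:27057320-27057569 for Prl, chr4:34893529-34893778 for Cga and chr12:3954695-3954944 for Pomc. Capitals mark matches on either strand to TATAAA (the TATA box), TATNCAT (a core of the Pit-1 site), TGACG (a core of the cAMP response element) or TAATCC (the site of the Pitx factors).
Prl: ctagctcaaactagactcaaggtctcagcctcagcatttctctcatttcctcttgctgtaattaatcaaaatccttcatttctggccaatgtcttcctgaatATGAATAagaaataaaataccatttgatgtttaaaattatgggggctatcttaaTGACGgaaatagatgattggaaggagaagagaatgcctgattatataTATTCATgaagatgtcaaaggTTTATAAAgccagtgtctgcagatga
Cga: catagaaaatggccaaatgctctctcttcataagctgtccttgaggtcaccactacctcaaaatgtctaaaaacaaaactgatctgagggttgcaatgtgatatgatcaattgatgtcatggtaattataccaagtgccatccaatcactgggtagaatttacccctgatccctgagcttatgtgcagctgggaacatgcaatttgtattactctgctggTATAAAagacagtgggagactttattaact
Pomc: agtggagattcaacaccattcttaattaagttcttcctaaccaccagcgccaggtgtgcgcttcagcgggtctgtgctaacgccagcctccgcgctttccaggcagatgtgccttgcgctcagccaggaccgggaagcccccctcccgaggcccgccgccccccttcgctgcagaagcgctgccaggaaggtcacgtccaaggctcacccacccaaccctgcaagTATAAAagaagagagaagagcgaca
The Prl window held 2 matches to TATNCAT, starting 148 and 47 bases before the start, 1 to TGACG at 94, and 2 overlapping matches to TATAAA on opposite strands at 26 and 24, printed as 1 run of capitals. The Cga window held TATAAA at 30 bases and the Pomc window at 25, and neither held the other motifs marked. None of the 3 windows held TAATCC or the full cAMP response element TGACGTCA. The E-box CANNTG, left in lower case, matched 2, 4 and 2 times in Prl, Cga and Pomc. Of 32851 promoter windows of this length, 12.4% held TATAAA, 7.92% TATNCAT, 17.8% TGACG, 6.25% TAATCC, 1.55% TGACGTCA and 66.2% CANNTG. A match is a run of letters and is not evidence of binding.

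The arrays were first compared with their labels. All 6 neuron markers measured, 3 of 4 astrocyte markers and all 4 oligodendrocyte markers were above every other panel array on all 3 brain arrays. The tissue's own markers stood above the other tissues for 5 of 6 cardiac, 4 of 5 skeletal muscle and 1 of 3 lung epithelial genes, and 3 of 4 adipocyte markers were above percentile 90 on every adipose array. The exceptions in muscle and lung lay partly in the brain control array, where Acta1, the actin of skeletal muscle, read 7858 and Scgb1a1, a secretoglobin of airway cells, read 12924, against 393 and 557 on the brain fragmentation array and 3596 and 456 on the brain hypoxia array. The deposited median intensity was 1480 on the brain hypoxia array and ran from 265 to 413 on the other 19. The panel was therefore brought to 1 common distribution of intensities by quantile normalization, and panel intensities below are on that scale unless called deposited. The control probe sets at the 3′ end of Actb were divided by those at its 5′ end. The ratio was 0.683 on the brain control array, 0.662 with fragmentation and 0.0343 with hypoxia, and that of Gapdh was 0.873, 1.09 and 1.60. Low ratios were not particular to the brain hypoxia array. In the same order Actb gave 0.0288, 0.0635 and 0.0351 in lung, and Gapdh gave 0.0261, 0.264 and 0.00899 in muscle.

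Gh, which encodes growth hormone, read far higher on the brain array with sleep fragmentation than on any other array of the panel. Its intensity was 1719 in control brain, 12791 with fragmentation and 2559 with hypoxia. In heart it was 1532, 1864 and 1516 in the same order, in lung 1173, 1054 and 872, and in muscle 2306, 1695 and 1421. The 11 arrays other than brain fragmentation thus lay between 872 and 2559, with control brain inside the range of muscle and hypoxic brain just above it. On the log2 scale, after adding an offset of 97.7 to each intensity, fragmentation minus control was 2.83 in brain (7.10-fold), which is rank 4 from the top among 12422 probe sets. It was 0.27 in heart, -0.14 in lung and -0.42 in muscle. Hypoxia minus control was 0.55 in brain, -0.01 in heart, -0.39 in lung and -0.66 in muscle. The brain fragmentation array exceeded the higher of the other 2 brain arrays by 2.28, again rank 4, and 79 probe sets stood 2-fold or more above both.

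Within its own array, where no scaling of the whole array can move the rank, the Gh probe set stood at percentile 81.7 in control brain, 99.7 with fragmentation and 88.9 with hypoxia. It stood between percentiles 65.5 and 87.3 in heart, lung and muscle. The deposited values in brain were 1465, 11386 and 7084, so that the order of the 3 conditions was the same before normalization, with a hypoxia value nearer to that of fragmentation on the brighter array.

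**Figure D1:**
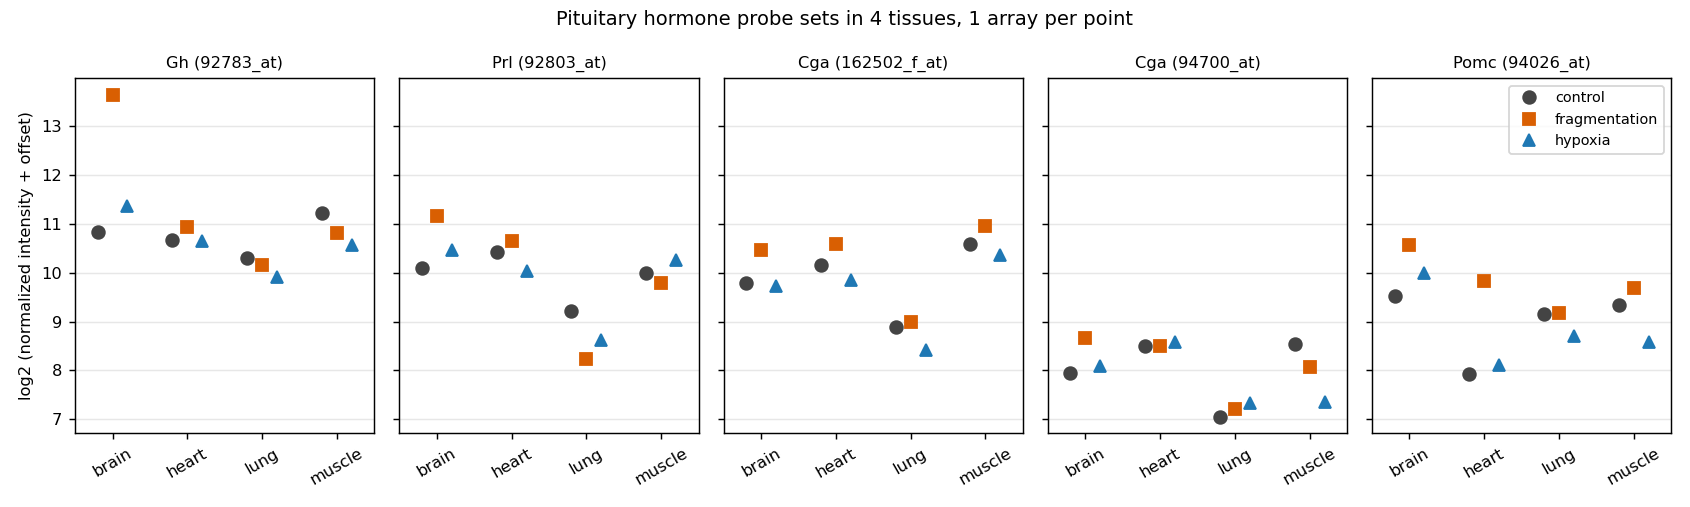
Log2 level (quantile-normalized intensity plus the offset) of the 5 probe sets of Gh, Prl, Cga and Pomc, 1 panel each, by tissue. Each point is 1 array (circle control, square fragmentation, triangle hypoxia), with no error bar because each tissue and condition has 1 array; the Gh square in brain stands apart from the other 11 points, while in the other panels the brain points lie within or near the range of another tissue.

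Prl, which encodes prolactin, read 1007 in control brain, 2191 with fragmentation and 1327 with hypoxia. In heart it read 1271, 1503 and 959, in lung 501, 205 and 296, and in muscle 920, 790 and 1134. The fragmentation value in brain was the highest of the 12, and the other brain values fell inside the range of heart. Fragmentation minus control was 1.05 in brain (2.07-fold, rank 217), 0.23 in heart, -0.98 in lung and -0.20 in muscle. Hypoxia minus control was 0.37 in brain, -0.37 in heart, -0.60 in lung and 0.27 in muscle.

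Pomc, the precursor of corticotropin, read 642 in control brain, 1426 with fragmentation and 926 with hypoxia. In heart it read 146, 814 and 180, in lung 473, 484 and 319, and in muscle 550, 728 and 284. Fragmentation minus control was 1.04 in brain (2.06-fold, rank 221) and 1.91 in heart (3.75-fold, rank 21), against 0.03 in lung and 0.35 in muscle. The larger of these differences was thus in heart, where the control and hypoxia arrays were low. Hypoxia minus control was 0.47 in brain, 0.19 in heart, -0.45 in lung and -0.76 in muscle.

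Cga, which encodes the subunit shared by the glycoprotein hormones, was read by 2 probe sets of different brightness. Probe set 162502_f_at, whose suffix marks probes that can match related sequences, read 788, 1323 and 754 in control, fragmentation and hypoxia brain. It read 1044, 1443 and 829 in heart, 378, 411 and 246 in lung, and 1453, 1905 and 1215 in muscle, so that brain lay below muscle in each condition. Fragmentation was above control and hypoxia below control in all 4 tissues for this probe set, with fragmentation differences of 0.68 in brain, 0.43 in heart, 0.10 in lung and 0.37 in muscle and hypoxia differences of -0.06, -0.30, -0.47 and -0.24. In brain the negative sign of hypoxia did not hold on the deposited values, where the difference was 1.64. Probe set 94700_at read 148, 309 and 175 in brain, 266, 264 and 284 in heart, 34.4, 50.1 and 64.1 in lung, and 275, 170 and 65.5 in muscle. Its fragmentation difference was 0.73 in brain, -0.01 in heart, 0.16 in lung and -0.48 in muscle, and its hypoxia difference was 0.15, 0.07, 0.29 and -1.19. The probe sets agreed in sign for fragmentation in brain and lung and disagreed in heart and muscle. Their levels had a Pearson correlation of 0.70 over the 12 arrays, which share tissues and conditions. Only 94700_at was removed by the filter on low values, so 4 of the 5 probe sets entered the fit across tissues.

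**Figure D2:**
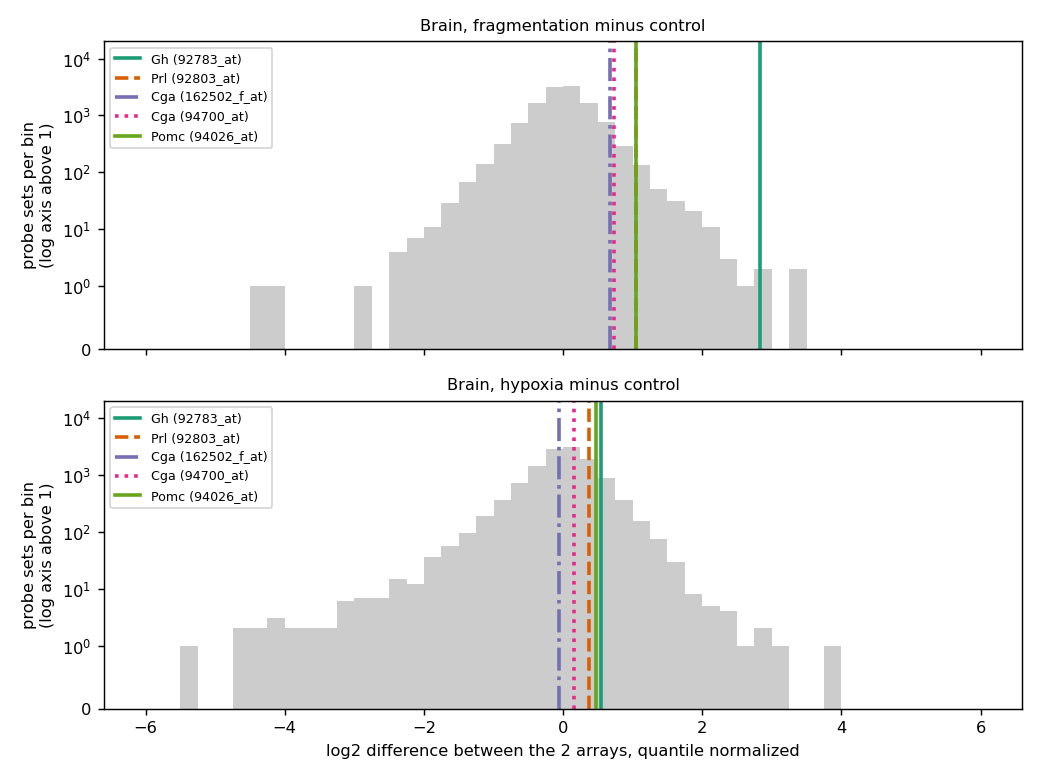
Distribution over 12422 probe sets of the log2 difference between the brain fragmentation array and the control array (upper) and between the hypoxia array and the control array (lower), as probe sets per bin on a log axis. Vertical lines mark the 5 probe sets of Gh, Prl, Cga and Pomc, which reach from 0.68 to 2.83 for fragmentation, with Prl and Pomc drawn over each other, and from -0.06 to 0.55 for hypoxia.

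In brain, then, all 5 probe sets read higher with fragmentation than in control. On the log2 scale with the offset, 3 of the 5 (Gh, Prl and Pomc) were 2-fold or more higher. Counts of 2-fold differences here and below use that scale, which narrows the differences of dim probe sets. Without the offset, Cga probe set 94700_at was 2.09-fold higher as well. Over all 12422 probe sets 2.06% were 2-fold or more higher with fragmentation and 2.13% lower, and since the genes were selected on this contrast nothing is read from the difference in share. With hypoxia 0 of the 5 were 2-fold apart from control in either direction, against 2.25% of all probe sets higher and 3.54% lower. Prl and Pomc lay close to the 2-fold line. With the offset set at percentile 40 of the positive values in place of 20, their fragmentation differences were 0.94 and 0.88, which leaves Gh alone past it. On the deposited values, with the brain hypoxia array left at its higher brightness, hypoxia minus control became 2.20 for Gh, 2.08 for Prl, 2.19 for Pomc, and 1.64 and 1.59 for the Cga probe sets. In whole tissue, fewer cells of a type and less RNA per cell cannot be told apart.

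The other hormone subunits of the anterior pituitary were less than 2-fold apart between the brain arrays with fragmentation and control. The beta subunit of thyrotropin, Tshb, read 106 in control brain, 74.9 with fragmentation and 152 with hypoxia. Lhb, the beta subunit of luteinising hormone, read 703, 1122 and 505, and Fshb, that of follitropin, read 166, 162 and 172. None of these 3 was 2-fold apart from control with hypoxia either, and their median difference with fragmentation was -0.02, against 0.00 over all probe sets. Each also lay inside its own range in heart, lung and muscle, except that the hypoxia value of Lhb was below it. Their summed intensity was 974, 1358 and 829 in control, fragmentation and hypoxia brain and ran from 945 to 2474 in the other tissues.

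Of 21 transcription factors and receptors that mark pituitary lineages, 14 were on the array and 1 was 2-fold higher with fragmentation, Sstr5, a somatostatin receptor (70.4, 310 and 225 in control, fragmentation and hypoxia). Lhx3, a factor of early pituitary development, was the 1 gene 2-fold lower with hypoxia (274, 379 and 86.4). Both were named after their values were seen. The median of the 14 was 0.22 with fragmentation and -0.02 with hypoxia. The 3 with the highest brain readings differed in how brain stood to the other tissues. Nr5a1, a factor of gonadotrophs, read 2760, 4469 and 1831 in brain and 3325 to 11923 elsewhere, and was lower in brain (-1.08, limma adjusted p = 0.00077), although 2 of its other 3 tested probe sets did not pass and the remaining one gave -0.38. Gata2, of thyrotrophs and gonadotrophs, read 1257, 1461 and 1645 and was also lower (-0.80, limma adjusted p = 0.0016). Neurod1, shared by corticotrophs and neurons, read 2093, 1190 and 1727 and was higher in brain.

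Genes that process and store peptide hormones, which neurons and pituitary cells both use, were higher in brain for 7 of 8 tested, against 23.5% of all probe sets. Among them Scg2, Scg5, Pcsk1n and Chgb passed the filter on low values only through their brain level. The share was thus partly set by the filter. Cpe, the carboxypeptidase that trims prohormones, read 17044, 17839 and 17839. Chgb, a granin of secretory granules, read 11771, 13650 and 11730, and Pcsk1n, an inhibitor of prohormone convertase, read 10264, 9941 and 11382. These are the 3 with the highest levels in brain. Quantile normalization gives all arrays the same top intensities, which limits how far Cpe could differ. The oligodendrocyte marker Mbp also read 17839, on the control array. Pcsk1, a convertase that cuts prohormones, read 268, 582 and 346, and Pam, which amidates peptides, read 323, 390 and 147, both inside the range of the other tissues. Of the 9 genes of this list on the array, 0 were 2-fold apart from control in either condition on the log2 scale with the offset, with medians of 0.07 and 0.02; the nearest were Pcsk1 with fragmentation (0.90) and Pam with hypoxia (-0.78).

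Among hypothalamic releasing factors and neuropeptides, 11 of 15 were on the array. Sst, which encodes somatostatin, read 3017, 3629 and 4007 in control, fragmentation and hypoxia brain, Npy read 2442, 3004 and 2870, and Gal, galanin, read 964, 1174 and 1048. Only Oxt, the oxytocin gene, was 2-fold higher with fragmentation (697, 1988 and 432, a log2 difference of 1.39), and it was named after its values were seen. Its brain values lay inside the range of 549 to 2483 in the other tissues, apart from the lower hypoxia value. The list's median was 0.26 with fragmentation and 0.11 with hypoxia.

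Markers of brain regions and of other tissues differed between the same arrays as the hormone genes. Of 5 cortical and hippocampal markers, 3 were 2-fold or more higher on both the fragmentation and the hypoxia array: Camk2a, a kinase of forebrain neurons (123, 1608 and 1911), Neurod6 (69.1, 633 and 1052) and Tbr1 (737, 1975 and 1945). The summed intensity of the 5 was 5099 in control, 9568 with fragmentation and 8389 with hypoxia. Of 6 cerebellar markers, all 6 were lower with fragmentation, 4 of them 2-fold or more, and 0 were 2-fold lower with hypoxia. Their sum was 48409, 19553 and 34798, and Car8, of Purkinje cells, read 14169, 3791 and 7208.

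Of 4 choroid plexus markers, all 4 were higher with fragmentation, with a median difference of 0.77 and sums of 2843, 5486 and 3767. With the offset 0 reached 2-fold, although Folr1 read 136 in control and 354 with fragmentation. Ttr, the transthyretin of that tissue, read 2289, 4463 and 2978. The order fragmentation above hypoxia above control, that of Gh, Prl, Pomc and Cga probe set 94700_at, held for this sum and for the cortical and hippocampal sum. It also held for the hypothalamic genes (10272, 13551 and 11519 in control, fragmentation and hypoxia) and for 3 thalamic markers (4594, 6048 and 4890). Single genes of these lists departed from it: Camk2a, Neurod6 and Sst read higher with hypoxia than with fragmentation. Much of the excess of fragmentation over hypoxia lay in Nrgn (3090 and 1914) for the cortical and hippocampal sum. For the hypothalamic sum much of it lay in Oxt (1988 and 432). The order did not hold for the sums of the other hormone subunits (974, 1358 and 829), the hormone receptors (3863, 4454 and 4801) or the processing and granule genes (49105, 50899 and 51040). The last of these sums was nearly equal with fragmentation and hypoxia. Nor did it hold for the lineage genes, whose sum was lowest with hypoxia. Of 5 skeletal muscle markers all 5 were 2-fold or more lower with fragmentation, 2 of them also with hypoxia (Acta1 and Tnni2), with sums of 10047, 657 and 6316. Of 3 lung epithelial markers 2 were 2-fold lower with fragmentation and 1 with hypoxia, with sums of 14155, 1099 and 1018. No probe set of any kind was at 0 on any panel array, these markers included. The neuron markers, in contrast, summed to 47445, 54788 and 60031, with 1 of 6 2-fold higher in both conditions (Syt1, a synaptic vesicle protein). The part of these marker differences in the hormone values was not tested.

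**Figure D3:**
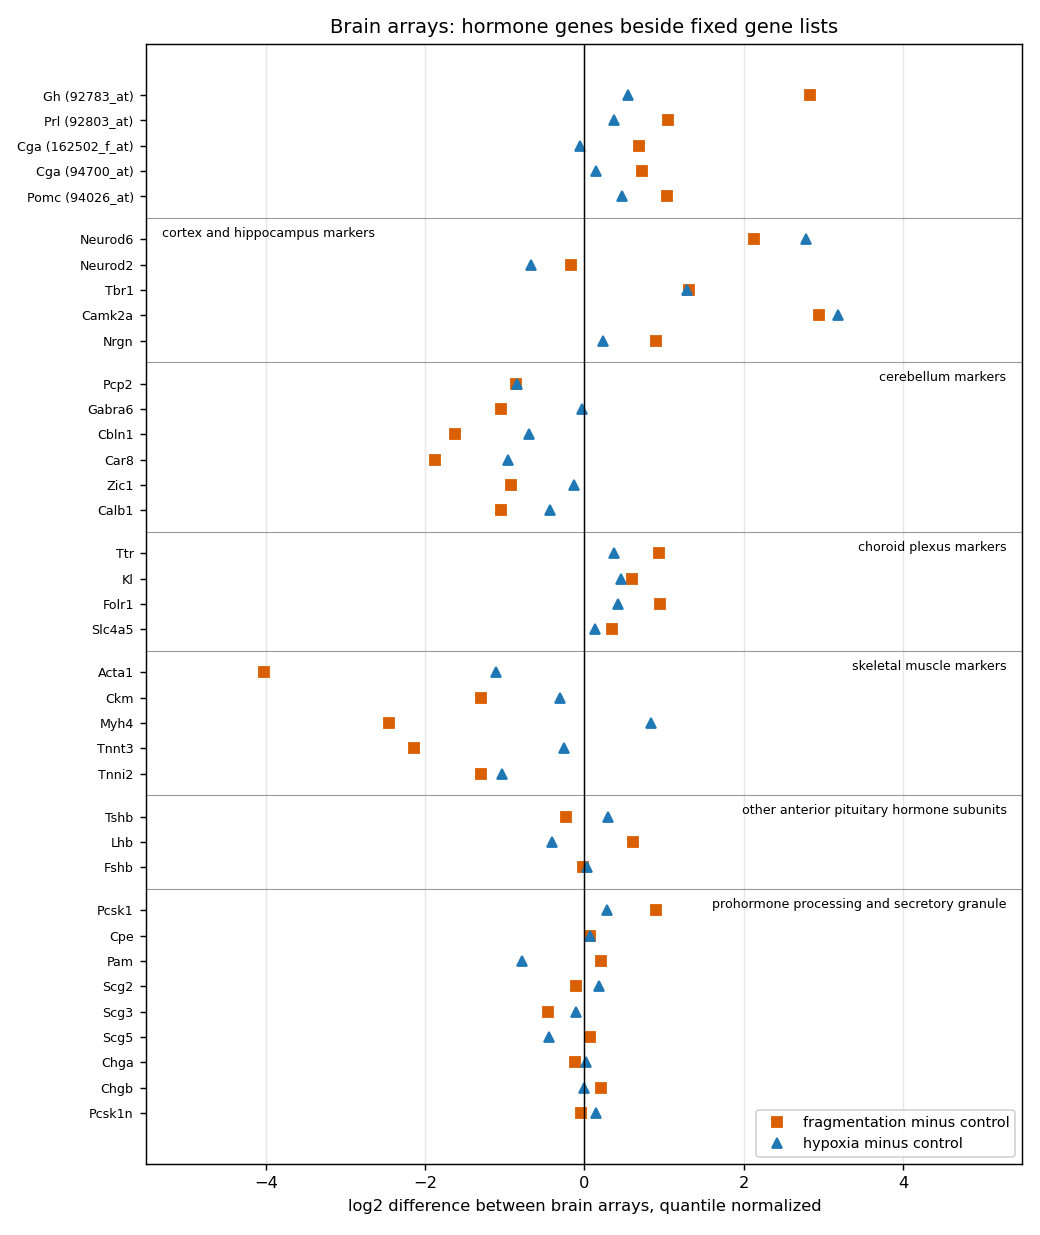
Log2 difference from the control brain array of the fragmentation array (squares) and the hypoxia array (triangles), 1 array each, for the 5 hormone probe sets and for the genes of 6 lists, each gene by its brightest probe set. Cerebellar and skeletal muscle genes lie left of 0 for fragmentation, choroid plexus genes right of 0, and the processing and granule genes within 1 log2 unit of 0, while Gh lies at 2.83.

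Whether brain differed from the other tissues on average was tested for Prl and Pomc, whose tissue contrast was not used to choose them, in a fit with tissue and condition as terms. Both were higher in brain than the mean of heart, lung and muscle. For Prl that mean was lowered by lung, with a mean log2 level of 8.70, while heart, at 10.37, was near brain. The SDs given run over the conditions, and for n = 9 also over heart, lung and muscle, not over replicates. Prl had a mean log2 level of 10.58 ± 0.53 in brain (SD, n = 3) and 9.69 ± 0.83 in the other tissues (SD, n = 9), a difference of 0.89 ± 0.27 (standard error; 95% interval 0.30 to 1.48; limma adjusted p = 0.0181). Pomc had 10.03 ± 0.52 in brain and 8.95 ± 0.66 elsewhere, a difference of 1.09 ± 0.27 (interval 0.49 to 1.68, limma adjusted p = 0.00633). Pomc passed the filter on low values only through its brain mean, so its entry into the test was not independent of this result. With no filter the differences were the same, with a limma adjusted p of 0.0110 for Pomc and 0.0291 for Prl. The groups overlapped for both genes: heart reached 1503 for Prl, above control and hypoxia brain, and heart and muscle reached 814 and 728 for Pomc with fragmentation, above control brain. Of 7453 probe sets tested, 23.5% were higher and 25.9% lower in brain at an adjusted p of 0.05. The Prl call was lost without the brain fragmentation array (0.53, limma adjusted p = 0.155) and without the brain hypoxia array (0.91, limma adjusted p = 0.0520). Without the hypoxia arrays of all 4 tissues the differences were 0.90 for Prl (limma adjusted p = 0.0754) and 0.84 for Pomc (limma adjusted p = 0.0835).

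The order of mean log2 levels over the tissues differed between the genes. For Prl it was brain 10.58, heart 10.37, muscle 10.02 and lung 8.70, where the SDs over 3 arrays (0.53, 0.30, 0.24 and 0.50) overlap between brain and heart. For Pomc it was brain 10.03, muscle 9.20, lung 9.01 and heart 8.63, with SDs of 0.52, 0.57, 0.27 and 1.05, so that muscle, lung and heart are not separated. Gh, given without a test, had means of 11.95 in brain, 10.87 in muscle, 10.75 in heart and 10.13 in lung, with an SD of 1.499 in brain against 0.16 to 0.34 in the others. Cga probe set 162502_f_at was highest in muscle (10.64), then heart (10.20), brain (9.9995) and lung (8.77), and 94700_at in heart (8.53), then brain (8.23), muscle (7.98) and lung (7.20). Lung was thus lowest for Gh, Prl and both Cga probe sets, but not for Pomc.

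The same fit placed the receptors and response genes of these hormones. Of 8 receptors on the array 4 were tested: Ghr, the growth hormone receptor, was lower in brain (-1.85 ± 0.12, limma adjusted p = 1.1e-06; 334, 465 and 447 on the brain arrays against 854 to 3451 elsewhere) and 0 were higher. Mc3r, a melanocortin receptor outside the filter, read 215, 532 and 594 and was the 1 receptor 2-fold higher than control in both brain conditions. The highest receptors in brain, Fshr (1582, 1474 and 1549), Mc5r (707, 1092 and 1144) and Mc1r (663, 702 and 761), lay within the range of the other tissues. Of 10 growth hormone response genes 6 were lower in brain and 0 higher, against 25.9% and 23.5% of all probe sets, among them Stat5a, a signal transducer of the receptor (-0.64 ± 0.18, limma adjusted p = 0.0114), and Cish, an inhibitor of that signal (-0.87 ± 0.19, limma adjusted p = 0.0036). Igf1, the main growth factor induced by growth hormone, read 4364, 4054 and 4838 in brain, within the 1881 to 6851 of the other tissues. With the offset, none of the 10 was 2-fold apart from control brain with fragmentation or hypoxia, and their medians were 0.39 and 0.27. The dim Igfbp3 read 91.6 in control and 242 with fragmentation. Of the hypothalamic genes 3 of 7 tested were higher in brain (Sst, Npy and Th) and 0 lower. Of the lineage genes 2 of 8 were higher (Neurod1 and Crhr1) and 2 lower (Nr5a1 and Gata2). These shares are to be read against the same 23.5% and 25.9%. Sst, Th, Neurod1 and Crhr1 passed the filter only through their brain level, so the shares higher in brain were partly set by it. Ghr, Igfals, Igfbp3 and Socs3 passed the filter only through tissues other than brain. The shares lower in brain were thus partly set by it as well.

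The genes most like each hormone gene were named by Pearson correlation of log2 level over the 12 panel arrays, which are few and share tissue and condition. Gh was most like Ube2v1, a ubiquitin-conjugating enzyme variant (0.88), Nudt3 (0.81) and Norad (0.80). With the brain fragmentation array left out, these correlations over 11 arrays were 0.75, 0.84 and 0.83. Prl was most like Rit2, a small GTPase of neurons (0.94), followed by Vps51 and Htr5b. Cga probe set 162502_f_at was most like Wnt10b, Akap8 and Mrpl18 (0.97, 0.97 and 0.96), and 94700_at like Tug1, Kng1 and Olfr15 (0.92, 0.91 and 0.90). Pomc was most like Arhgef25, Ass1 and Ip6k1 (0.88, 0.84 and 0.82). Between the hormone genes, the correlation of Gh was 0.72 with Prl and 0.66 with Pomc, and that of Prl with Pomc was 0.32, or 0.09 without the brain fragmentation array. The Cga probe sets correlated at 0.75 and 0.76 with Prl, the highest values between genes over the 12 arrays, at 0.51 and 0.61 with Gh, and at 0.28 and 0.18 with Pomc (162502_f_at first). Without the brain fragmentation array Gh with Prl was the highest, at 0.79, and Gh with Pomc was 0.48. The Cga probe sets then gave 0.74 and 0.71 with Prl, 0.71 and 0.71 with Gh, and 0.19 and -0.02 with Pomc. No 2 hormone genes were among each other's 3 most alike.

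In subcutaneous adipose tissue, Gh and Pomc read above the floor on all 8 arrays, which is not a call of detection. The floor is the offset value to which lower intensities were set before log2. Prl and both Cga probe sets lay at it on at least 4 arrays each. Gh read 929 and 1107 in Con with hypoxia, 1121 and 722 in Con without, 503 and 729 in Glucose with hypoxia, and 414 and 713 in Glucose without, as deposited. The 4 Con arrays ran from 722 to 1121 and the 4 Glucose arrays from 414 to 729, which overlap at 1 array of each. In all 4 groups the array with s4 in its title read lower than the one with s2. Within s2 the arrays read 1107 and 1121 on Con against 713 and 729 on Glucose (-0.63 log2), and within s4 722 and 929 against 414 and 503 (-0.84), with no overlap within either code, whose meaning the labels do not give. The mean log2 level of Gh was 9.90 ± 0.30 on Con (SD, n = 4) and 9.16 ± 0.40 on Glucose (SD, n = 4). Glucose minus Con was -0.74 ± 0.30 (standard error; 95% interval -1.43 to -0.04), which did not pass adjustment over the 7453 probe sets tested (limma adjusted p = 0.185). Of these, 7.58% passed (565: 301 higher and 264 lower on Glucose). Hypoxia minus non-hypoxia was 0.16 ± 0.30 for Gh (interval -0.53 to 0.86; limma adjusted p = 0.9998), and the hypoxia effect on Glucose minus that on Con was -0.02 ± 0.59. The Gh probe set stood between percentiles 56.5 and 77.9 of its array.

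Pomc read 466 and 335 in Con with hypoxia, 260 and 487 in Con without, 336 and 351 in Glucose with hypoxia, and 390 and 388 in Glucose without. The groups overlapped. Glucose minus Con was 0.32 within s2 and -0.40 within s4, 2 arrays against 2 in either case. Glucose minus Con was -0.04 ± 0.28 (95% interval -0.69 to 0.61; limma adjusted p = 0.954) and hypoxia minus non-hypoxia was -0.01 ± 0.28 (interval -0.67 to 0.64; limma adjusted p = 0.9998). For hypoxia 0 of 7453 probe sets passed by limma (0%), with 110 at an unadjusted p of 0.05, and with no filter on low values 4 passed.

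Prl read 342 and -264 in Con with hypoxia, 260 and 131 in Con without, 140 and -381 in Glucose with hypoxia, and -96.3 and 55.6 in Glucose without, with 4 of 8 arrays at the floor. Cga probe set 162502_f_at was at the floor on 4 arrays and 94700_at on 7. The brightest reading of 162502_f_at was 402, on 1 Glucose array with hypoxia, while the other 7 arrays read from 57.2 to 139. All 3 probe sets were removed by the filter, so no test is given for them.

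**Figure D4:**
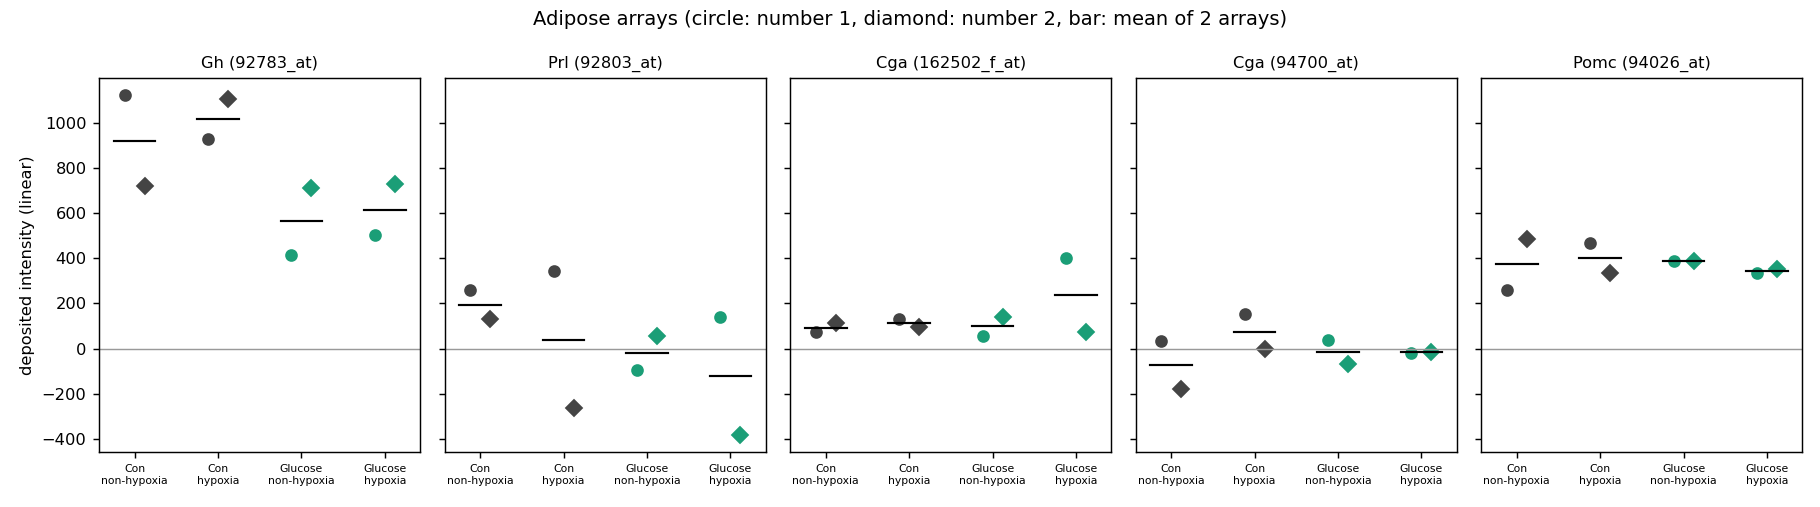
Deposited intensity (linear scale, negative values included) of the 5 probe sets of Gh, Prl, Cga and Pomc on the 8 adipose arrays, by group. Each symbol is 1 array, circles for number 1 and diamonds for number 2, and each bar is the mean of 2 arrays; for Gh the 4 Glucose arrays lie between 414 and 729 and the 4 Con arrays between 722 and 1121.

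Of the receptors of these hormones 5 were tested in adipose tissue, each by its brightest probe set, and 1 passed, against 7.58% of all probe sets. Mc2r, the corticotropin receptor, read from -26.8 to 558 on the 4 Con arrays and from 1063 to 1693 on the 4 Glucose arrays, with no overlap. Its difference was 2.15 ± 0.45 (limma adjusted p = 0.0321), where 1 Con array lay at the floor. The brighter probe set of Ghr, 99108_s_at, read 4183 to 5751 on Con and 8340 to 9460 on Glucose, a difference of 0.85 ± 0.21 that did not pass (limma adjusted p = 0.0544). Its other probe set, 99107_at, read 1112 to 2922 and 4067 to 5074, a difference of 1.14 ± 0.26 that did (limma adjusted p = 0.0409), so the probe sets had the same sign on either side of the threshold. Tshr, the thyrotropin receptor, did not pass (1.28 ± 0.33, limma adjusted p = 0.0643). The median of the 5 was 0.90, against 0.04 over all probe sets tested.

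Of 9 growth hormone response genes tested, 1 passed, a share near the 7.58% of all probe sets. Igfals, the subunit that carries insulin-like growth factors in blood, read from -683 to 273 on Con, with 1 array at the floor, and from 1046 to 1571 on Glucose (2.67 ± 0.36, limma adjusted p = 0.00589). Socs2, an inhibitor induced by growth hormone, read 688 to 1288 on Con and 340 to 640 on Glucose, a difference of -1.10 ± 0.31 that did not pass (limma adjusted p = 0.0840). Igf1 was read by 2 probe sets: the brighter, 95546_g_at, differed by -0.22 ± 0.35 (limma adjusted p = 0.762) and 95545_at, the one used in the panel, by -0.73 ± 0.26 (limma adjusted p = 0.146). Igfals had a further probe set, 162450_f_at, at the floor on all 8 arrays. The median of the 9 was -0.45. Mc2r, Tshr, Igfals and Socs2 were named after their values were seen. In neither list did a gene pass for hypoxia.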

How the data were processed

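The deposited values are 1 intensity per probe set and array on a linear scale, as summarised by the authors; the software and any scaling are not given in the sources used here. Of 12488 probe sets, 66 platform controls were left out. Symbols came from the platform annotation. The panel was quantile normalized and taken to log2 after adding 97.7, percentile 20 of all positive values. Adipose arrays kept their deposited scaling, with values under that offset set to it. Each fit kept 7453 probe sets above percentile 40 (of the highest tissue mean in the panel, of the mean in adipose). Models were fitted with limma 3.58.1 under R 4.3.3 (lmFit, eBayes, two-sided), with Benjamini-Hochberg adjustment over the probe sets kept: tissue plus condition in the panel (6 residual degrees of freedom), 4 group means in adipose (4). The code was tested on simulated data.

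The genes and lists were chosen with earlier results of these data known. Named were every hormone probe set, all other subunits, the 3 genes of a list with the highest brain mean and up to 3 that were 2-fold apart in both brain comparisons, and the 3 probe sets most correlated with each hormone gene. Genes named outside this rule are marked as such or were named as examples of calls. A gene with several probe sets was read by the brightest. Alternatives were other scalings, offsets, floors and filters, blocks for replicate letter and for the s2 or s4 of the titles, and leaving out arrays.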

Additional observations from a re-analysis of the deposited data

How the results depend on the processing

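The fragmentation differences of all 5 probe sets in brain kept their sign under the 4 other scalings and offsets tried, and that of Gh ran from 2.70 to 2.89; Cga 94700_at moved from 0.73 to 1.01 with the offset divided by 10 and to 0.45 with the offset at percentile 40. The brain hypoxia differences moved on deposited values without normalization, to 2.20 (Gh), 2.08 (Prl), 1.64 (Cga 162502_f_at), 1.59 (Cga 94700_at) and 2.19 (Pomc), where the median of that array was not brought to the others. The brain call lost its threshold for Prl without all fragmentation arrays (0.54, limma adjusted p = 0.128), and without all hypoxia arrays for Prl (0.90) and Pomc (0.84), fits with fewer samples. Leaving out 1 brain array gave 0.53 to 1.22 for Prl and 0.84 to 1.27 for Pomc.

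In adipose tissue the replicate letters did not pair the arrays uniformly: deviations of same-lettered arrays correlated from -0.14 to 0.41. The highest value was between the Glucose groups, where letter and s code coincide. Letter and s code also coincide between Con with hypoxia and the Glucose groups, where the values were -0.05 (with hypoxia) and -0.11 (without). Between the Con groups, where they do not coincide, the value was 0.18. With the replicate block the Gh difference between Glucose and Con stayed at -0.74 (limma adjusted p = 0.211) and 466 probe sets passed in place of 565; with the s code of the titles as a block these were 0.118 and 474. Leaving out 1 array gave -0.93 to -0.54 for Gh and -0.26 to 0.19 for Pomc, and from 240 calls (without Glucose with hypoxia, number 1) to 459 (without Glucose without hypoxia, number 2, the 1 array whose loss changed the count by less than 1.5 times). For hypoxia it gave -0.032 to 0.36 for Gh and -0.24 to 0.21 for Pomc, and 4 probe sets passed with no filter. The sign of the Pomc differences, and of the Gh hypoxia difference, is thus not settled. With 1 array per condition, no difference within a panel tissue has a replicate check.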
